A study of Mus musculus with 2 samples.

Results

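The genes described here are 34 genes that adipocytes use to store fat, to make it or to signal, measured in RNA of the mouse adrenal gland. They were named by symbol, matched to gene identifiers through the gene names that the deposited transcript tables carry, and all 34 were found among 55536 annotated genes. Of these, 19 genes used as markers of fat cells are grouped under the name adipocyte-only (Adipoq, Lep, Retn, Cfd, Orm1, Plin1, Plin4, Cidec, Fabp4, Aqp7, Pck1, Lgals12, Ces1d, Pparg, Acvr1c, Adrb3, Aoc3, Car3 and Nat8l). A further 12 are lipogenic or lipid-uptake genes, or regulators, that other cells share (Acly, Acaca, Fasn, Scd1, Thrsp, Gpd1, Agpat2, Dgat2, Lpl, Cd36, Cebpa and Sncg), and 3 are genes of brown adipocytes (Ucp1, Cidea and Ppargc1a). The name is not strict: at least 8 of the 19 (Fabp4, Plin1, Car3, Aoc3, Pck1, Pparg, Orm1 and Ces1d) are also known in other cells that a gland can hold, and Acvr1c is known in other endocrine cells. The split was made by what the genes are known for, but with earlier results of these data known.

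Total RNA came from adrenal gland tissue of male adult mice, 8 to 10 months old, of a strain labelled 5xFAD/CAST. 5xFAD is a transgenic model of amyloid deposition in which human transgenes are driven by a neuronal promoter, and CAST denotes an inbred line of wild origin. There was 1 group of 2 libraries, labelled biological replicates 1 and 2, and both carry the same genotype label, so nothing here compares 5xFAD with another genotype. Each library was made from 300 ng of RNA, has its own biosample entry and shares 1 donor entry with the other, so the spread between them may not be that between animals. The depth over annotated genes was 29204658 counts for replicate 1 and 26322473 counts for replicate 2. Reads from CAST alleles were quantified against mm10 like all others, and the effect of that on these genes was not analysed here.

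With 2 libraries of 1 group no test can be made, since a two-sided sign-flip over 2 libraries cannot give a p below 0.5. Levels are given in TPM, a share of all transcripts corrected for transcript length, which can be compared between genes. The difference between the libraries is given as the log2 ratio of replicate 2 to replicate 1, computed from estimated counts after scaling of the totals, with a standard error (SE) that covers counting error only. It describes these 2 libraries and nothing about a condition.

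White adipocytes hold 1 large lipid droplet coated by perilipins, release fatty acids and glycerol from it, and secrete hormones such as leptin and adiponectin. Their identity is set by the nuclear receptor PPARG with C/EBP factors, which bind the promoters of many of the genes below. De novo lipogenesis, in contrast, runs in many cell types: ACLY turns citrate into acetyl-CoA, which ACACA and FASN build into fatty acids and SCD1 desaturates, and steroid-making cells draw on the same acetyl-CoA for cholesterol. The adrenal gland lies within perirenal fat, and the libraries hold no information on where in the dissected tissue a transcript came from.

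Of the 34 genes, 21 had an entry in a RefSeq promoter table of GRCm38.p6, the same assembly as mm10, with 26 start sites in all. The 250 bases before each start were searched on both strands for the letters TTGCNNAA of the C/EBP motif, for AGGTCANAGGTCA, the spaced direct repeat read by PPARG with its partner RXR, with up to 2 mismatches, for the TATA box letters TATAAA and for the E-box CACGTG. C/EBP letters stood before 4 of the 21 genes, Cidec, Lep, Plin1 and Pparg, which are 4 of the 11 adipocyte-only genes and 0 of the 8 shared genes in the table; 10.8% of all 27025 genes in it have them. The direct repeat stood before Aqp7 and Cd36, against 3.72% of all genes, TATAAA before Cebpa and Pparg, against 14.3%, and CACGTG before 0 of the 21, against 6.86%. No window held letters of more than 1 of these motifs. The matches describe letters and no binding was measured.

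The windows below are those with C/EBP letters or the direct repeat in adipocyte-only genes, with Adipoq, Cfd and Fasn beside them as windows in which none of the 4 motifs was found. They run 5′ to 3′ along the gene's strand up to the start, bases in an annotated exon are left out, and capitals mark a match.
Lep, chr6:29059971-29060219, plus strand: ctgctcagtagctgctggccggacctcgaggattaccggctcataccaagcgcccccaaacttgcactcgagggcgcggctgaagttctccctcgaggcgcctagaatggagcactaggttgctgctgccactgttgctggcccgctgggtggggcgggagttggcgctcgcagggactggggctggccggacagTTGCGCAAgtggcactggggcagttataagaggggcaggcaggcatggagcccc
Plin1, chr7:79732904-79733026, minus strand: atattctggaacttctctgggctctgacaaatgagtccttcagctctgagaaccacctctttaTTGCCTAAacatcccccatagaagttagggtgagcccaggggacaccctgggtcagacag
Cidec, chr6:113434765-113435014, minus strand: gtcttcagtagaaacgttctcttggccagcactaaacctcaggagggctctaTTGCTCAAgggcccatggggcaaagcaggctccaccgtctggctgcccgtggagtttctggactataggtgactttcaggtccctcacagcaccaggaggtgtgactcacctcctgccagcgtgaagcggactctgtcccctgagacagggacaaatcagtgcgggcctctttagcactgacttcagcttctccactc
Pparg, chr6:115421816-115422065, plus strand: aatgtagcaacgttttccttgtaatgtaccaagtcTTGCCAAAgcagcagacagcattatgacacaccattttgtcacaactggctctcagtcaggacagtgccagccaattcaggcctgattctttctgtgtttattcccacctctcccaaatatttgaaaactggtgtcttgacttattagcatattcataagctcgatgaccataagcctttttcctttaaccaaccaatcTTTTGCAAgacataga
Aqp7, chr4:41048140-41048386, minus strand: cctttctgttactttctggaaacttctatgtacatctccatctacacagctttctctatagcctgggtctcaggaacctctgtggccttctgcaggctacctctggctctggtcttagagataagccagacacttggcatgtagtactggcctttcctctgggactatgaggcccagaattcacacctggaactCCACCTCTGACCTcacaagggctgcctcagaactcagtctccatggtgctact
Adipoq, chr16:23146286-23146535, plus strand: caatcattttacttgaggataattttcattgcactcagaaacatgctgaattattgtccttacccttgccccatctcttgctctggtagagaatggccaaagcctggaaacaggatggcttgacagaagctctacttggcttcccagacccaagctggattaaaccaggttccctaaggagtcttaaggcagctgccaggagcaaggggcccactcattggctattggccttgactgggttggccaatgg
Cfd, chr10:79890603-79890852, plus strand: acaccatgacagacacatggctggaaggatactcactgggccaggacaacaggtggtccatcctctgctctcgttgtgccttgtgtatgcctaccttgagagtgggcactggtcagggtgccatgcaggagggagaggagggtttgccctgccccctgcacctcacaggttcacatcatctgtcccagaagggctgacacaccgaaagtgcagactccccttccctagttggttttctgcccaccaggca
Fasn, chr11:120824548-120824797, minus strand: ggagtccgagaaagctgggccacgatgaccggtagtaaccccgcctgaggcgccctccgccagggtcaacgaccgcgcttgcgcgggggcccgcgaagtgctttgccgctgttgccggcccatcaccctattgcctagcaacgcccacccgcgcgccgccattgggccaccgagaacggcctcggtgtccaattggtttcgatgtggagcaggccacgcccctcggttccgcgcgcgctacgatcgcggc

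The Lep, Plin1, Aqp7, Adipoq, Cfd and Fasn windows lie upstream of their genes, outside any annotated gene body. In Lep the C/EBP letters begin 55 bases before the start. In Plin1 they begin 187 bases before the RefSeq start, and another match at 58 bases lies in an exon of annotated transcripts that start further upstream and is not shown. The Cidec window, with its match at 198 bases, lies inside the gene before the start of the transcript Cidec-203, while the window before the longer Cidec-202 has no match. The Pparg window lies in an intron of the longer Pparg transcripts, just before the first base of Pparg-201, the transcript for the adipocyte form PPARG2, with matches that begin 215 and 16 bases before the start. In Aqp7 the direct repeat begins 56 bases before the start, and a further match before another start lies in an exon and is not shown.

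At least 1 TPM in both libraries, called detected here, was reached by 32 of the 34 genes, against 25.5% of all annotated genes. That share includes noncoding genes, while the genes described here have protein-coding transcripts. Of the 34, Nat8l, which makes N-acetylaspartate, fell short at 0.98 and 0.97 TPM in replicates 1 and 2. So did the brown-fat coactivator gene Ppargc1a, at 1.17 and 0.41 TPM. The median gene of the adipocyte-only group stood at 20.2 TPM in replicate 1 and 11.9 TPM in replicate 2, and that of the shared group at 53.1 and 38.7 TPM. The adipocyte-only genes together held 0.139% of all counts in replicate 1 and 0.0838% in replicate 2, and the shared genes 0.346% and 0.328%.

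**Figure D1:**
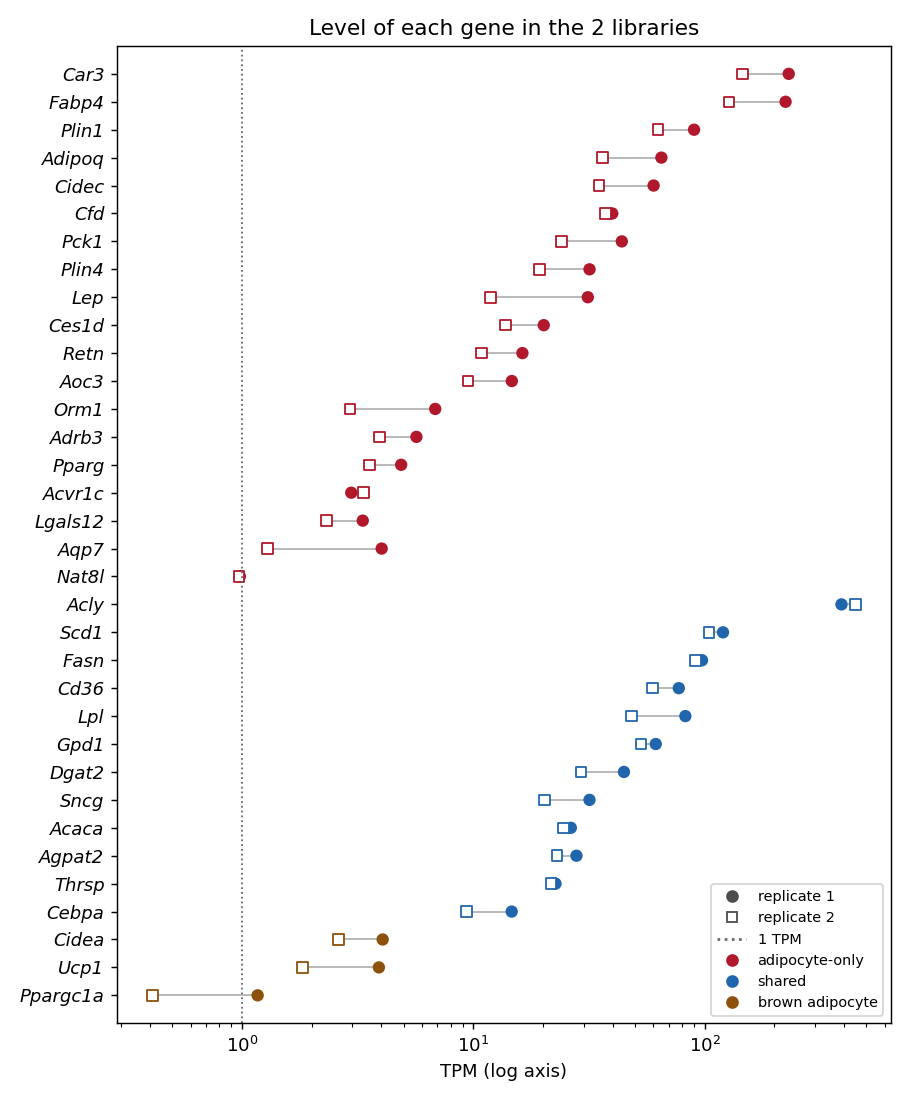
Level of each of the 34 genes in TPM on a log axis, with filled circles for replicate 1, open squares for replicate 2, and colour for the group. Most adipocyte-only genes have their square to the left of their circle, while Acly, the highest of the 34, has it to the right at 448 TPM against 390 TPM.

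The minimum for computing a ratio, a mean of 20 counts or more, was met by all 34 genes, and 32 of them were lower in replicate 2, against 51.4% of the 16383 genes with that count. At 1.5-fold or more lower in replicate 2 stood 19 of the 34, against 4.03% of all genes, and 0 of the 34 stood 1.5-fold or more higher, against 2.69%. The count was 12 of 19 in the adipocyte-only group, 4 of 12 in the shared group and 3 of 3 in the brown group. The median log2 ratio was -0.70 over the adipocyte-only genes, -0.31 over the shared genes and -1.11 over the brown genes, and -0.01 over all genes. In bulk tissue fewer cells of a type and less RNA per cell cannot be told apart. The 34 genes were chosen with earlier results of these libraries known, so these shares describe the 2 libraries only.

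**Figure D2:**
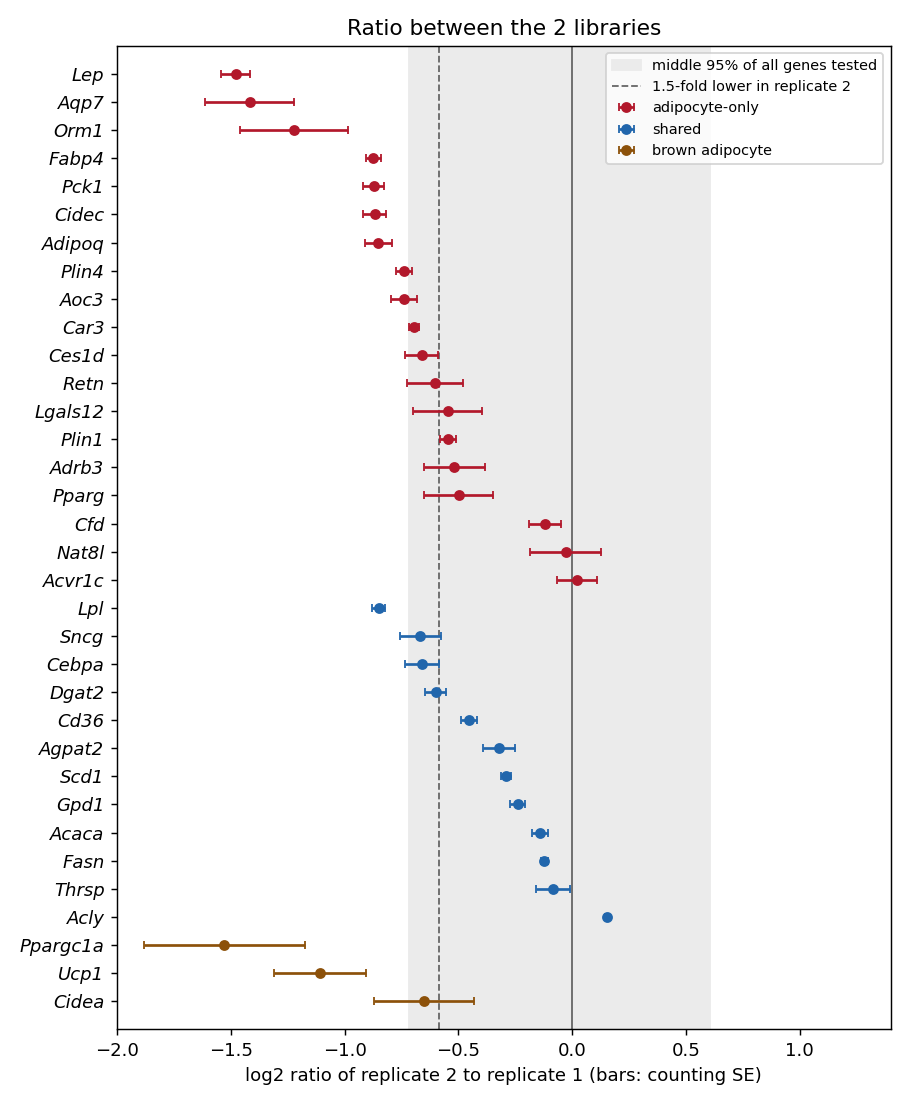
Log2 ratio of replicate 2 to replicate 1 for each gene, with bars of 1 counting SE, a dashed line at 1.5-fold lower and a grey band from -0.72 to 0.60 that holds the middle 95% of all genes averaging 20 counts or more. Of the adipocyte-only genes, Cfd, Nat8l and Acvr1c sit near 0.

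The adipocyte hormone genes were all present. Adipoq, which encodes adiponectin, was at 65.0 TPM in replicate 1 and 36.1 TPM in replicate 2, a log2 ratio of -0.85 ± 0.06 (SE). Lep, the leptin gene, was at 31.3 and 11.9 TPM, a log2 ratio of -1.48 ± 0.06 from 2213 and 719 counts. Only 0.372% of all genes tested lay at or below it. Leptin RNA thus differed more between the libraries than adiponectin RNA did: Lep was at 0.481 times the TPM of Adipoq in replicate 1 and at 0.329 times in replicate 2. Retn, which encodes resistin, was at 16.3 and 10.85 TPM, a log2 ratio of -0.60 ± 0.12 that lies just past 1.5-fold. On the deposited TPM its ratio was -0.58 and just short of it.

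Cfd, which encodes the serine protease adipsin (complement factor D), did not go with the other hormone genes. It was at 39.9 TPM in replicate 1 and 37.3 TPM in replicate 2, a log2 ratio of -0.12 ± 0.07, and stood at 0.613 times Adipoq in replicate 1 and at 1.03 times in replicate 2. Orm1, an acute-phase glycoprotein gene, was low, at 6.85 and 2.93 TPM, with a log2 ratio of -1.22 ± 0.24 from 132 and 51 counts. Its paralogs are near-identical, so its counts may hold reads of theirs.

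Among genes of the lipid droplet and of fatty acid handling, Fabp4, the fatty acid carrier of adipocytes that macrophages and endothelium also make, was the highest at 224 TPM in replicate 1 and 128 TPM in replicate 2. Its log2 ratio was -0.87 ± 0.03. Plin1, which coats the droplet of fat cells and is also found in steroid-making cells, was at 90.0 and 63.0 TPM, a smaller log2 ratio of -0.55 ± 0.04 that stays short of 1.5-fold. Cidec, which lets droplets fuse, was at 60.2 and 34.9 TPM with a log2 ratio of -0.87 ± 0.05, and Plin4 at 31.8 and 19.3 TPM with -0.74 ± 0.03. Relative to Adipoq in the same library, Fabp4 was nearly the same in both, 3.44 and 3.53 times, as was Cidec, 0.925 and 0.967 times, while Plin1 went from 1.38 to 1.74 times.

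Pck1, whose enzyme supplies glycerol for triglyceride in fat, was at 43.9 TPM in replicate 1 and 24.1 TPM in replicate 2, a log2 ratio of -0.87 ± 0.05. Aqp7, the glycerol channel of fat cells, was at 4.02 and 1.29 TPM, a log2 ratio of -1.42 ± 0.20, from 216 and 73 counts. Of this glycerol pair the channel gene had the larger gap, with a wide counting error. In a separate quantification of the same reads the 2 log2 ratios were closer, -1.11 for Aqp7 and -0.87 for Pck1. Ces1d, a lipid-droplet carboxylesterase gene with close paralogs in the same cluster, was at 20.2 and 13.8 TPM. Its log2 ratio was -0.66 ± 0.07 from counts, but -0.54 on the deposited TPM, short of 1.5-fold. Lgals12, a galectin gene of fat, was at 3.33 and 2.32 TPM with a log2 ratio of -0.55 ± 0.15. All 8 genes of this role were lower in replicate 2, and 6 of them by 1.5-fold or more.

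Of the receptors, enzymes and the regulator, Car3, the carbonic anhydrase that is abundant in fat and muscle, was the highest adipocyte-only gene at 231 TPM in replicate 1 and 146 TPM in replicate 2. Its log2 ratio was -0.70 ± 0.02. Skeletal muscle markers were near 0. The highest of 7 skeletal muscle markers, Mylpf, was at 0.90 and 0.51 TPM, and Acta1 was at 0.44 and 0.46 TPM. Myh4 had 0 counts in both libraries, which allows up to 3 counts in each. Which cells the Car3 RNA came from was not tested. Aoc3, a surface amine oxidase of adipocytes and smooth muscle, was at 14.7 and 9.47 TPM with a log2 ratio of -0.74 ± 0.06. Adrb3, the beta-adrenergic receptor gene of fat cells, was at 5.68 and 3.93 TPM with a log2 ratio of -0.52 ± 0.13.

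Acvr1c, an activin and nodal receptor gene of adipocytes that other endocrine cells also use, was the only adipocyte-only gene not lower in replicate 2. It was at 2.97 TPM in replicate 1 and 3.36 TPM in replicate 2, and its counts of 578 and 532 gave a log2 ratio of 0.02 ± 0.09. With spike-in totals as the scale it was -0.07. Nat8l had a log2 ratio of -0.03 ± 0.16. Thus 3 of the 19 adipocyte-only genes, Cfd, Nat8l and Acvr1c, were within 0.12 of 0 on the log2 scale, and the other 16 lay between -0.50 and -1.48. Whether those 3 come from other cells of the gland was not tested.

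Pparg, the regulator, was at 4.88 TPM in replicate 1 and 3.56 TPM in replicate 2. Its log2 ratio of -0.50 ± 0.15 came from 231 and 148 counts and stays short of 1.5-fold. Cebpa, its partner in the shared group, was at 14.7 and 9.34 TPM, a log2 ratio of -0.66 ± 0.07. The start of Pparg in use was not settled by these tables. Pparg-201, whose first base follows the window with C/EBP letters printed above, held 37.2% of the gene's TPM in replicate 1 and 64.1% in replicate 2. In the second transcript table, a separate quantification of the same reads, it held 40.0% and 56.3%. Pparg-204, which starts far upstream, held 41.9% and 20.1% in the first table and close to 0 in the second. Over all 5 transcripts that start before Pparg-201, the share was 62.8% and 26.7% in the first table and 48.6% and 22.1% in the second, where Pparg-206 and, in replicate 1, Pparg-203 held most of it. The transcript with the adipocyte start was thus present in both tables. The TPM share of the upstream starts was lower in replicate 2 in both, and which upstream transcript held it differed between the tables. In the second table, few counts on short transcripts held most of that share. Pparg-206, of 497 bases, had 17.5 and 4.08 counts there, and Pparg-203, of 213 bases, had 2 and 0. Pparg-201, of 1767 bases, had 186 and 115, so the lower upstream share in the second table is uncertain.

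**Figure D3:**
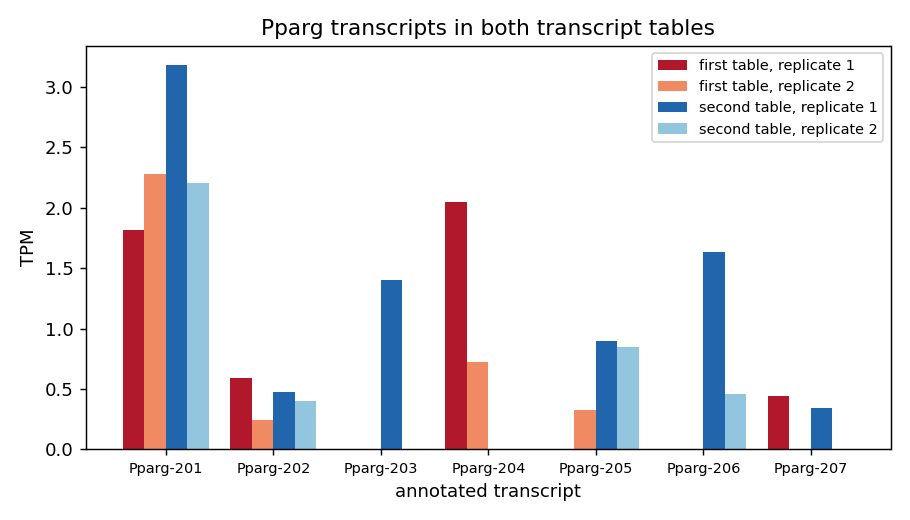
TPM of each annotated Pparg transcript in both transcript tables and both libraries, as bars from 0. Pparg-201 is present in all 4 cases at 1.82 to 3.18 TPM, and Pparg-204 is seen in the first table but is close to 0 in the second.

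The lipogenic enzymes of the shared group differed little between the libraries. Acly was at 390 TPM in replicate 1 and 448 TPM in replicate 2, rank 110 of all genes by mean TPM, with a log2 ratio of 0.15 ± 0.01. Fasn was at 97.4 and 91.2 TPM with a log2 ratio of -0.12 ± 0.02, and Acaca, the gene of the step before it, at 26.4 and 24.6 TPM with -0.14 ± 0.03. Scd1, the desaturase gene, was at 120 and 104.5 TPM with -0.29 ± 0.02. Thrsp, a lipogenic protein gene regulated by thyroid hormone, was at 22.7 and 21.7 TPM with -0.08 ± 0.08. None of these 5 reached 1.5-fold, and their median log2 ratio was -0.12. Acly was at 6.002 times the TPM of Adipoq in replicate 1 and at 12.4 times in replicate 2, and Fasn at 1.498 and 2.53 times.

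Genes of fatty acid uptake and glyceride synthesis lay nearer to the adipocyte-only genes. Lpl, the lipase that frees fatty acids from lipoproteins, was at 82.6 TPM in replicate 1 and 48.2 TPM in replicate 2, a log2 ratio of -0.85 ± 0.03, equal to that of Adipoq to 2 decimals. Dgat2, which completes triglyceride, was at 44.8 and 29.2 TPM with a log2 ratio of -0.60 ± 0.05, just past 1.5-fold. Cd36, the fatty acid translocase gene that endothelium and macrophages share, was at 77.3 and 59.5 TPM with -0.45 ± 0.03. Agpat2, the acyltransferase gene whose loss causes lipodystrophy, was at 27.9 and 23.0 TPM with -0.32 ± 0.07, and it overlaps Egfl7 on the opposite strand. Gpd1, which makes glycerol phosphate, was at 61.5 and 53.15 TPM with -0.24 ± 0.03. The median over these 5 was -0.45, and 2 of them were past 1.5-fold. Sncg, the gamma-synuclein gene of neurons and fat cells, was at 31.8 and 20.3 TPM with a log2 ratio of -0.67 ± 0.09.

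The brown adipocyte genes were close to the limit of detection. Ucp1, the uncoupling protein gene of brown fat, was at 3.91 TPM in replicate 1 and 1.83 TPM in replicate 2, a log2 ratio of -1.11 ± 0.20 from 172 and 72 counts. Cidea, a droplet protein gene of brown fat, was at 4.06 and 2.62 TPM with -0.65 ± 0.22. Ppargc1a, the coactivator gene of mitochondrial biogenesis, had 71 and 22 counts and a log2 ratio of -1.53 ± 0.35. All 3 were 1.5-fold or more lower in replicate 2, and Ppargc1a had the widest counting error of the 34 genes.

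**Figure D4:**
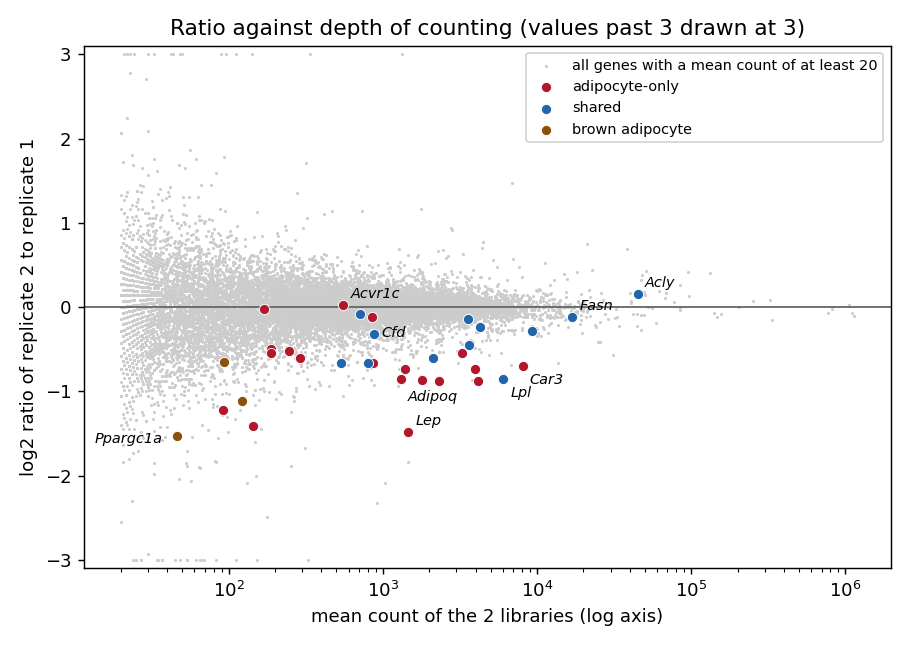
Log2 ratio of replicate 2 to replicate 1 against the mean count of the 2 libraries on a log axis, with all genes in grey and the 34 genes in colour. Lep, Lpl, Car3 and Adipoq lie well below 0, while Acly and Fasn lie near 0.

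The deeper a gene is counted, the less the libraries differed: the SD of the log2 ratio was 0.456 over the 16383 genes averaging 20 counts or more and 0.303 over the 12596 averaging 100 or more. Of the 34 genes, 31 averaged 100 counts or more, and 16 of those were 1.5-fold or more lower in replicate 2, against 1.55% of all genes counted that deeply. The levels did not rest on 1 quantifier. Of the 32 detected genes 0 differed by over 1.5-fold in mean TPM between the gene table and the second transcript table, against 6.83% of all detected genes. In replicate 1 alone Pparg did, at 4.88 TPM in the gene table and 7.94 TPM in the second. The same transcript led a gene in both libraries and both tables for 24 of the 34, of which 4 have 1 annotated transcript. The share of all genes for which this holds was not computed. Among the other 10 was Lep, for which the short Lep-202 held 24.25% and 27.9% of TPM in the first table and 48.6% and 53.8% in the second.

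Other genes of fat cells came from a list of 26, of which 23 were matched by symbol. Of the 22 with enough counts, 18 were lower in replicate 2 and 7 by 1.5-fold or more, with a median log2 ratio of -0.32. For this list and those below, the shares over all genes were 51.4% lower and 4.03% lower by 1.5-fold or more. Hp, the haptoglobin gene, was at 21.4 and 11.1 TPM with a log2 ratio of -1.06 ± 0.09, and Fabp5 at 9.03 and 4.61 TPM with -1.01 ± 0.16. Adora1, an adenosine receptor gene, was the highest of the list at 96.1 and 87.9 TPM, followed by the lipase gene Pnpla2 at 83.2 and 78.1 TPM. Klf15 was higher in replicate 2, at 5.94 and 7.48 TPM with 0.35 ± 0.10.

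Other lipogenic and glyceride genes were lower in 17 of 23 and past 1.5-fold in 0, with a median of -0.09. The desaturase genes Fads2 and Fads1 stood highest in ratio, at 0.43 ± 0.01 and 0.38 ± 0.01, with Fads2 at 526 and 716 TPM. Me1, which makes NADPH for lipogenesis, was at 633 and 531 TPM. Fads3 and Mlxipl, the gene of the carbohydrate-response factor, stood lowest, at -0.57 ± 0.09 and -0.44 ± 0.08. Lipolysis genes were lower in 9 of 10 and past 1.5-fold in 0, with a median of -0.13. Lipe, the hormone-sensitive lipase that also frees cholesterol in steroid-making cells, was at 50.9 and 44.0 TPM, and Plin2, the droplet coat of most cell types, at 95.3 and 90.8 TPM with -0.12 ± 0.03.

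Further brown adipocyte genes were detected for 6 of 12, against 25.5% of all annotated genes. Of the 8 with enough counts 6 were lower in replicate 2, with a median log2 ratio of -0.22. Past 1.5-fold was 1 of them, the proton channel gene Otop1 at 0.85 and 0.50 TPM. Elovl3 was near 0 at 0.09 and 0.04 TPM, as was Dio2 at 0.12 and 0.09 TPM. Prdm16 had a log2 ratio of -0.36 ± 0.18. Cox8b was at 23.8 and 25.7 TPM, with a log2 ratio of 0.09 ± 0.15, while that of Ucp1 was -1.11. Kcnk3, a potassium channel gene that the adrenal cortex itself expresses, was at 505 and 474 TPM. A list of 7 receptor genes, those of adipokines with the insulin and prolactin receptor genes Insr and Prlr added, was detected for 7 of 7 and past 1.5-fold for 0. Lepr, the leptin receptor gene, was at 5.46 and 6.62 TPM with 0.19 ± 0.08, and the adiponectin receptor genes Adipor1 and Adipor2 were at 39.95 and 39.2 TPM and at 26.4 and 25.9 TPM.

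Markers of other cell types differed between the libraries to unequal extents. Of 10 macrophage markers 7 were lower in replicate 2 and 3 by 1.5-fold or more, with a median log2 ratio of -0.45, and their summed level was 256 TPM in replicate 1 and 171 TPM in replicate 2. Lyz2 was the highest of them, at 146 and 81.4 TPM, and held most of the difference in that sum. The resident-macrophage gene C1qb was at 33.4 and 30.2 TPM. The markers not lower were Csf1r, Mrc1 and Cd163, with log2 ratios of 0.14 ± 0.05, 0.05 ± 0.06 and 0.08 ± 0.17. Endothelial markers were even, with a median of -0.02 and summed levels of 379 and 392 TPM, with 0 of 10 past 1.5-fold. Those of fibroblasts and fat progenitors had a median of -0.09 and summed levels of 204 and 208 TPM, with 1 of 10, Col3a1, past 1.5-fold. Those of smooth muscle had a median of -0.04 and summed levels of 77.7 and 65.5 TPM, with 1 of 6, Acta2, past 1.5-fold. Of 10 cortex markers 7 were higher in replicate 2 and 3 lower (Cyp11a1, Cyp11b1 and Cyp11b2), with a median of 0.07 and Star at 5583 and 5825 TPM. Of 10 chromaffin markers 10 were higher, with a median of 0.17. The part of these cells in the ratios of the 34 genes was not tested.

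Liver and kidney markers were near 0, with a summed level over 10 genes of 3.33 and 2.08 TPM, and the kidney duct gene Aqp2 highest at 1.69 and 1.01 TPM. The 3 of them with enough counts, Alb, Cubn and Aqp2, were all 1.5-fold or more lower in replicate 2, with a median log2 ratio of -1.05, and Alb had 40 and 7 counts. Of 7 mesothelium and lymph node markers 6 had enough counts, with a median log2 ratio of -0.38. Of these, 5 were lower in replicate 2 and 2 by 1.5-fold or more. Those 2, Upk3b and Msln, are genes of the lining of the abdominal cavity, named after their values were seen. They had 90 and 7 counts and 85 and 21 counts. Lrrn4 had a log2 ratio of -0.51 ± 0.19, and Lyve1 was higher in replicate 2, at 0.45 ± 0.28. Prox1, the highest of that list, was at 14.7 and 13.25 TPM. The part of these tissues in the ratios of the 34 genes was not tested either.

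**Figure D5:**
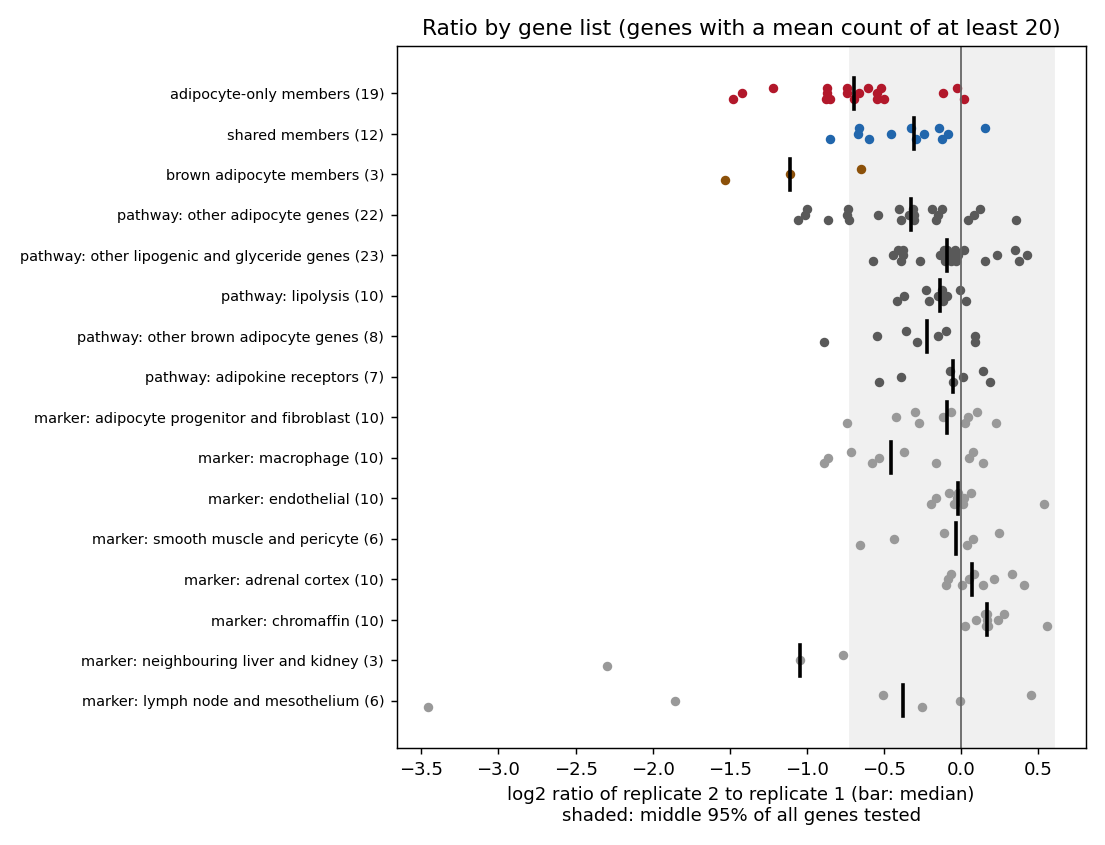
Log2 ratio of replicate 2 to replicate 1 for each gene averaging 20 counts or more, by list, with the number of genes in brackets, a black bar at the median and grey shading for the middle 95% of all genes. The adipocyte-only median lies at -0.70, the macrophage median at -0.45 and the cortex and chromaffin medians at 0.07 and 0.17.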

How the data were processed

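Estimated counts, TPM and FPKM per gene, deposited by the authors for each library, were quantified against mm10 with GENCODE M21, per the deposited notes; for the aligner and quantifiers, name and version were not given in the sources used here, though the columns carry the names used by RSEM and by kallisto. Per the file headers, the deposited transcript tables hold expected counts, TPM and the percent of a gene's TPM that a transcript holds. Another deposited table gives estimated counts and TPM per transcript, summed here per gene and called the second transcript table. The deposited bounds of an interval on TPM, a signal on the TPM scale, were not used. The authors' TPM spans all 81881 features, of which 96 spike-ins and 26248 entries with numeric identifiers name no gene. These stayed out of totals; spike-ins held 0.468% and 0.504% of counts in replicates 1 and 2.

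Expected counts were rounded, totals scaled by TMM in edgeR 4.0.16 (R 4.3.3), with DESeq2 1.42.0 size factors as an alternative, and log2 ratios taken with a prior count of 0.5 and a mean count of at least 20. Counting SEs assume independent reads, so they cover counting error only. Libraries were strand-specific, per the labels' protocols. The ratio and its SE were tested on simulated counts that hold counting error only, so that test does not cover other spread between libraries. Tables were handled in Python 3.11.15 with numpy 2.4.6 and pandas 2.3.3, and figures drawn with matplotlib 3.10.9. Promoter sequences came from the RefSeq table of GRCm38.p6, and the last 30 bases of the window were found near the start of a GENCODE transcript for 18 of the 21 genes.

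The members, lists and groups were chosen with earlier results of these data known. Named genes are all 34 members and, of each further gene list, the 4 highest by mean TPM and the 2 highest and 2 lowest ratios, or some of these. Of the marker lists, only some have their 2 highest genes by mean TPM named. Other genes, such as Elovl3, Dio2, Prdm16, Col3a1, Acta2, Upk3b and Msln, are named for their levels or ratios. The endothelial and chromaffin lists are given as summaries only, and a lymphocyte list is not described.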

Additional observations from a re-analysis of the deposited data

How the results depend on the processing

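Member ratios were recomputed with DESeq2 size factors, plain totals, spike-in totals, deposited TPM or FPKM with a pseudocount of 0.1, the second transcript table, a prior count of 2 and mean count minimums of 5 and 100. Of 303 such values 282 stayed within the 95% counting interval of the main value and 21 moved further. The minimums of 5 and 100 only choose genes and leave each ratio unchanged, so their 34 and 31 values could not move. No gene past 1.5-fold changed sign, while Acvr1c went from 0.02 to -0.07 with spike-in totals. Of the 21, 13 came from spike-in totals, which shift the median of all genes to -0.10. Under spike-in totals the shared median was -0.40, 1 member (Acly) was higher in replicate 2, and 23 members were 1.5-fold or more lower, with Plin1, Lgals12, Adrb3 and Pparg added. That count was 17 on TPM and 16 with the stricter minimum. Without the 8 genes named above as also known in other cells, the adipocyte-only median was -0.60. Cfd, Nat8l and Acvr1c, whose ratios were near 0, stayed in that median. Leaving out 1 library, members over 1.5-fold apart between tables ranged from 0 to 1 (Pparg, without replicate 2), and 32 or 33 were detected. No ratio exists without 1 library. No paired analysis was possible because there is 1 group. Genes with under 100 counts, such as Ppargc1a, Orm1 and Cidea, are limited by depth.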
